A study of Homo sapiens with 14 samples.

Results

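The imprinted DLK1-MEG3 domain at 14q32 carries a large group of miRNA genes, and 54 of its mature miRNAs were followed here in PANC-1, an established cell line from a human pancreatic ductal carcinoma. The members were chosen by name, with earlier results of these data known, and all 54 were found among the 2848 entries of the deposited read counts. Small RNA was sequenced from monolayers grown in medium with serum and treated with DMSO, the vehicle, or with 20 µg/ml of proanthocyanidins from grape (PA), polyphenols built of flavanol units. DMSO cells were harvested at 4 times (0, 3, 12 and 24 h) and PA cells at 3 (3, 12 and 24 h), so DMSO at 0 h had no PA counterpart. Each of these 7 groups had 2 libraries, A and B, 14 in all. Whether A and B were separate cultures was not stated beyond the word biological in the design text, so p-values measure only the spread between these libraries, which may be technical.

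As background, the genes of this domain are expressed from one parental copy: DLK1 and RTL1 from the paternal chromosome, and MEG3, MEG8, MEG9 and the miRNAs from the maternal one. The miRNAs lie in long non-coding transcripts downstream of MEG3, each hairpin giving a 5p and a 3p arm, and the seed, bases 2 to 8 of a mature miRNA, is the main part that pairs with target mRNAs. The MEG3-proximal group includes miRNAs that lie opposite the coding sequence of RTL1 and are known to direct cleavage of its mRNA, and the distal group is a tandem array of related hairpins best known from brain and placenta.

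The sequences below are those the comparisons turn on, from RefSeq (GRCh38.p14), with the seed in capitals. The prefix hsa- of the table is left out in the text after this. The first 5 passed the test of PA against DMSO at 12 h, the next 4 passed it at 24 h, and the last 4 are the other arm of miR-380, the members that share a seed with miR-154-3p and miR-411-3p, and the most abundant member.
hsa-miR-377-3p: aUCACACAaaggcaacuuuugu
hsa-miR-494-3p: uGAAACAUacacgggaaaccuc
hsa-miR-370-3p: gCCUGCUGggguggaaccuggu
hsa-miR-369-3p: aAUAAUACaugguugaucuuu
hsa-miR-411-3p: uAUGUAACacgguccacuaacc
hsa-miR-380-5p: uGGUUGACcauagaacaugcgc
hsa-miR-154-3p: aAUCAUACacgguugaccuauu
hsa-miR-376a-3p: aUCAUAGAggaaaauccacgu
hsa-miR-376b-3p: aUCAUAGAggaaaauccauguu
hsa-miR-380-3p: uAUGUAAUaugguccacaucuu
hsa-miR-487a-3p: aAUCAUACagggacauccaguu
hsa-miR-379-3p: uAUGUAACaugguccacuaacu
hsa-miR-136-3p: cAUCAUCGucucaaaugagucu

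The 15 proximal members came from 9 hairpin genes at chr14:100869075-100911207 (GRCh38.p14, plus strand), a stretch of 42.1 kb from miR-493 to miR-370. The 39 distal members came from 30 hairpin genes at chr14:101022071-101066786, a stretch of 44.7 kb from miR-379 to miR-656, and 110.9 kb separated the groups. In the GENCODE 29 annotation the proximal hairpins lay in an intron of the lincRNA AL117190.1, and the 9 members from miR-431 to miR-136 also lay opposite an exon of RTL1. Of the distal members, 15 (miR-379 to miR-495) lay in introns of MEG8, 5 (miR-381 to miR-655) in introns of MIR381HG, and 6 (miR-409 to miR-656) within MEG9. MEG8 was not confined to the distal group: its bounds, chr14:100894770-101038859, also took in miR-370, the last proximal hairpin.

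Close likeness between members was found in the distal group. Among pairs of distal members, 44 of 741 were alike at 65% or more of their bases, against 0 of 105 proximal pairs and 0 of 585 pairs with one member of each group. Most distal pairs were not that close, with a median likeness of 40.9%, against 36.4% for proximal pairs. Despite this, the 54 members carried 51 distinct seeds. The pairs that shared one were miR-376a-3p with miR-376b-3p, miR-379-3p with miR-411-3p, and miR-487a-3p with miR-154-3p. Counted from 1 at the 5′ end, miR-376b-3p differed from miR-376a-3p by C19U and by 1 more base at its 3′ end, and miR-411-3p differed from miR-379-3p by U10C and U22C. The counting rule for reads that fit more than one entry was not given in the sources used here, so counts of such near-identical members are uncertain, and miR-376a-3p has 2 loci that cannot be told apart. Some of these miRNAs, the miR-376 family above all, are known to undergo A-to-I editing, and how edited reads were counted was not given either. Median GC content was 45.5% in the distal and 54.5% in the proximal group, against 52.2% over the 2059 named entries with a sequence. The triplet GGU, searched on the miRNA strand only, stood in 24 of 39 distal members, 7 of 15 proximal members and 31.9% of those 2059 entries.

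Total counts per library ran from 1032391 to 3111014, and 810 entries, all 54 members among them, passed the filter on low counts. Levels are in CPM, counts scaled to library size with TMM factors. A and B differed most at 12 h, in DMSO (chi-square per member 22.1) and in PA (21.4), against 4.57 to 10.9 in the other groups. Markers of other cell types were counted, but not all of them passed the filter on low counts. It was passed by 8 of 12 fibroblast and endothelial entries and by 2 of 5 red blood cell entries. On the haematopoietic list 0 of 4 passed it, on that of liver, muscle and neuron 0 of 7, and on that of acinar and islet 1 of 5. The fibroblast and endothelial list of 12 entries, led by miR-126-5p, summed to 831 to 977 CPM in DMSO 12 h and to 1097 to 1610 CPM in the other 12 libraries. The red blood cell list of 5, led by miR-486-5p, summed to 544 to 604 CPM in DMSO 12 h and 303 to 570 CPM elsewhere. The haematopoietic, the liver, muscle and neuron, and the acinar and islet lists stayed between 0.339 and 13.02 CPM in every library. Entries that overlap other small RNAs (13, led by miR-4454), taken as a sign of RNA quality, summed to 3484 to 5967 CPM in DMSO 12 h, 6721 to 11338 CPM in PA 12 h and 4049 to 10931 CPM elsewhere. No marker in the table was at 0 in all libraries. In these bulk samples fewer cells expressing a miRNA and less of it per cell cannot be told apart.

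Members took 1.35% to 1.89% of a library. Their mean levels ran from 3.70 CPM (miR-494-5p) to 1832 CPM (miR-136-3p), with a median of 121.65 CPM, against a median of 20.1 CPM over all entries tested. Only 5 members exceeded 1000 CPM, and they gave 43.8% of the cluster's reads: miR-136-3p, miR-369-3p (1593 ± 348 CPM, SD, n = 14), miR-411-5p (1302 ± 287), miR-127-3p (1164 ± 167) and miR-381-3p (1000.3 ± 127). miR-136-3p and miR-127-3p are processed opposite RTL1, and miR-127-3p is a known repressor of BCL6. miR-369-3p is known for binding the AU-rich element of TNF mRNA. The next 5 were miR-409-5p (955 ± 320 CPM), miR-337-5p (631 ± 161), miR-410-3p (618 ± 87.7), miR-377-3p (503 ± 156) and miR-665 (454 ± 116). The fifth most abundant proximal member was miR-493-3p (415 ± 89.2 CPM). At the other end 6 members stayed under 10 CPM, and 2 of them, miR-485-5p and miR-494-5p, had 0 counts in 1 library each. Both abundant and rare miRNAs were present in both groups and next to each other on the chromosome, often as the 2 arms of one hairpin.

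**Figure D1:**
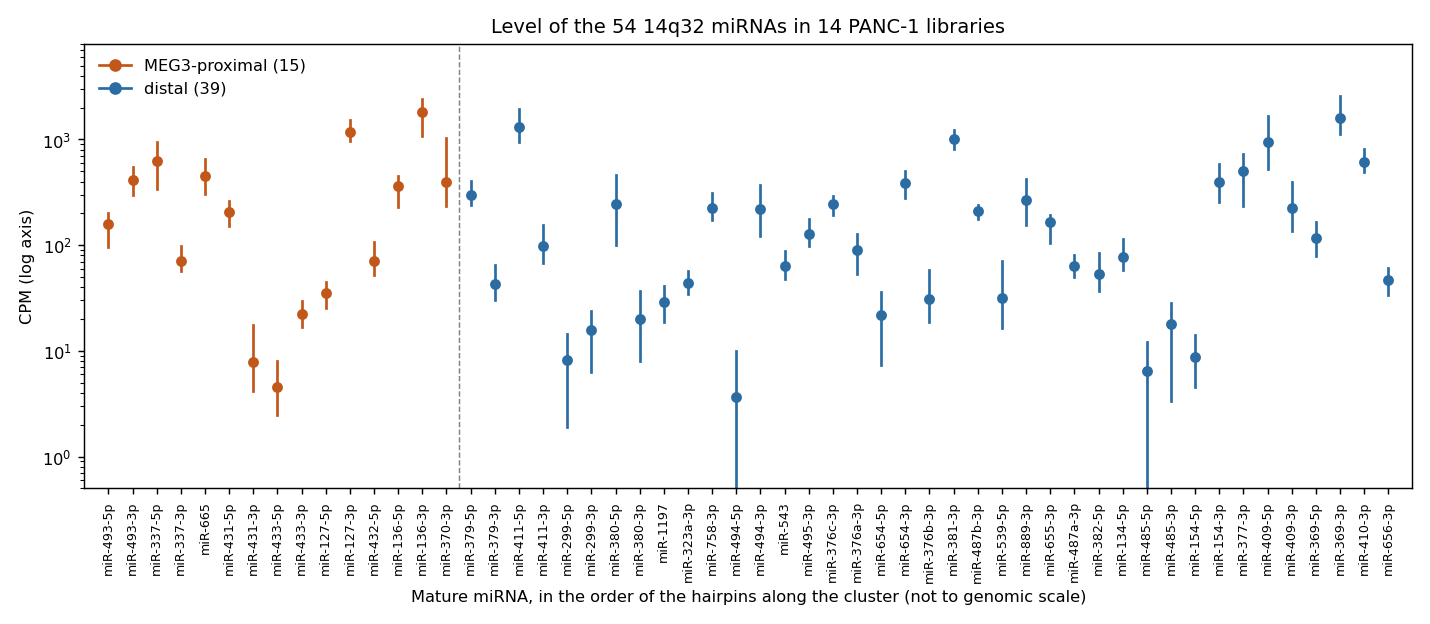
Mean CPM (points) and the range over 14 libraries (bars) on a log axis for the 54 members, in the order of their hairpins along the cluster, proximal in orange and distal in blue. Levels ranged from 3.70 to 1832 CPM within the cluster, and the bars of miR-494-5p and miR-485-5p run off the axis because 1 library each held 0 counts.

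Summed over members, the distal group exceeded the proximal group 1.69-fold (± 0.054, SD, n = 14), with every library between 1.59-fold and 1.79-fold. These sums run over 39 distal and 15 proximal members, so they do not compare levels per member. The median of the members' mean levels was lower in the distal group (98.6 CPM) than in the proximal group (206.7 CPM). On the log2 scale the proximal over distal ratio was -0.76 ± 0.05 (SD over 14 libraries), and the 7 group means lay between -0.79 and -0.72, a span close to the spread between A and B within a group (SD 0.018 to 0.10). The value of the ratio rests in part on the most abundant members. Without miR-136-3p and miR-369-3p it was -1.05 ± 0.12.

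**Figure D2:**
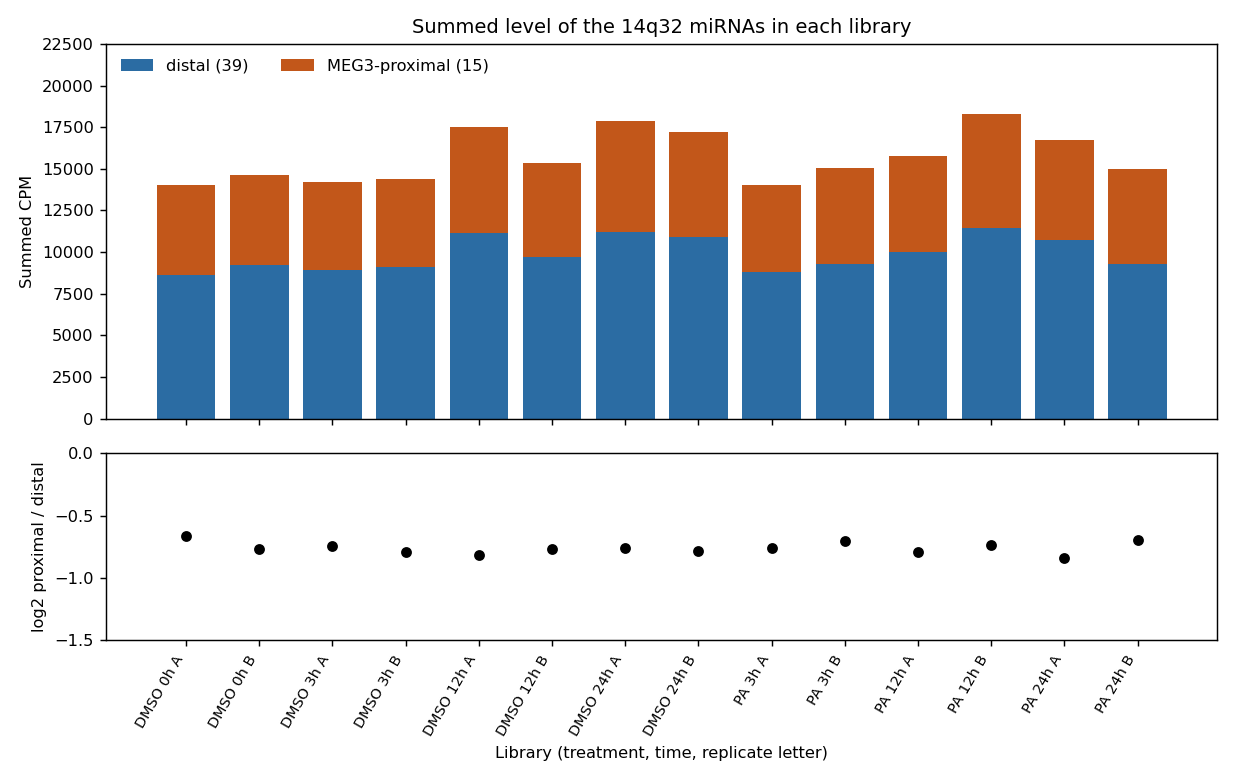
Upper panel: summed CPM of the distal (blue) and proximal (orange) members in each library. Lower panel: log2 of the proximal over the distal sum, which lies between -0.84 and -0.67 in all 14 libraries.

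The summed level of the cluster was higher in the later DMSO libraries than in the earlier ones. It was 14023 and 14636 CPM in DMSO 0 h (A and B), 14226 and 14409 in DMSO 3 h, 17502 and 15380.1 in DMSO 12 h, and 17855 and 17224 in DMSO 24 h. The PA libraries of 3 h summed to 14019 and 15022 CPM, those of 12 h to 15776 and 18312, and those of 24 h to 16714 and 14971. All 4 DMSO libraries of 12 and 24 h lay above all 4 of 0 and 3 h, and the PA 24 h pair lay below the DMSO 24 h pair. Of the 54 members, 22 had their lowest group mean in DMSO 0 h and 22 had their highest in DMSO 24 h. The highest group mean exceeded the lowest by a median of 1.73-fold, and exceeded 2-fold for 16 members. The widest folds include those of miR-494-5p, miR-299-5p and miR-485-5p, all under 10 CPM. These counts and folds were not taken over all entries, so they do not set the members apart from other miRNAs.

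Several members changed with time in DMSO alone. In the test of DMSO at 3, 12 or 24 h against DMSO at 0 h (edgeR quasi-likelihood F test, adjusted over all 810 entries), 11 of 54 members passed, where 13.1% of all entries passed: 4 proximal (miR-370-3p, miR-493-3p, miR-136-5p and miR-665) and 7 distal (miR-377-3p, miR-409-3p, miR-411-3p, miR-380-5p, miR-380-3p, miR-376a-3p and miR-154-3p). An unadjusted p under 0.05 was found for 24 of 54 members and for 29.8% of all entries. miR-380-5p fell throughout, at 434 and 462 CPM in DMSO 0 h (libraries A and B, in this order throughout). Its 3 h libraries held 289 and 263 CPM, those of 12 h 232 and 141, and those of 24 h 148 and 99.3. Its log2 fold changes against 0 h were -0.70, -1.26 and -1.86 (adjusted p = 0.00383). The opposite arm of the same hairpin, miR-380-3p, went the other way, from 8.06 and 11.5 CPM at 0 h to 18.4 and 18.1, 17.1 and 23.7, and 27.9 and 36.9 CPM. Its log2 fold changes were 0.91, 1.05 and 1.74 (adjusted p = 0.0264). For neither arm did the 0 h and 24 h libraries overlap. miR-380-5p passed in each of the 21 alternatives, while the call of miR-380-3p ended on leaving out DMSO 0 h A, with an adjusted p of 0.108, DMSO 3 h B, with 0.0508, or DMSO 24 h B, with 0.138. miR-376a-3p rose by 0.48, 0.85 and 0.95 on the log2 scale (adjusted p = 0.0276). Leaving out either library of 0 h (0.0583 for A, 0.146 for B), either of DMSO 3 h (0.0554 for A, 0.0556 for B) or the A library of DMSO 24 h (0.0816) ended its call. miR-136-5p was lost without DMSO 12 h B (0.0974) or DMSO 24 h A (0.0655) and with a correction for GC content (0.0713, or 0.0828 with the replicate block), miR-665 without DMSO 3 h B (0.0791) or either library of DMSO 24 h (0.0556 for A, 0.206 for B), and miR-154-3p in 8 of 14 left-out libraries (0.0544 to 0.2). The count of members passing changed with the library left out.

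The 12 h control was set against the other DMSO times as well. Against the mean of DMSO at 0, 3 and 24 h, DMSO at 12 h differed in 9 of 54 members (16.5% of all entries), 6 higher (8.89% of all entries) and 3 lower (7.65%). Higher were miR-370-3p (log2 fold change 1.20 ± 0.21 SE, adjusted p = 0.00161), miR-409-3p (0.87 ± 0.15, 0.00161), miR-411-3p (0.75 ± 0.15, 0.00341), miR-493-3p (0.55 ± 0.13, 0.00773), miR-127-3p (0.46 ± 0.12, 0.0185) and miR-369-3p (0.42 ± 0.14, 0.046). Lower were miR-377-3p (-1.06 ± 0.18, 0.00115), miR-136-5p (-0.72 ± 0.14, 0.00287) and miR-494-3p (-0.65 ± 0.19, 0.0278). The sister arm of miR-136-5p, miR-136-3p, was at 1778 and 1081 CPM in DMSO 12 h and did not pass. Both arms were lower there than in DMSO 0 h, with log2 fold changes of -0.71 (5p) and -0.50 (3p). A difference between the arms over DMSO times was not tested. Without DMSO 12 h B, miR-370-3p was at 0.60 (adjusted p = 0.0592), and without DMSO 12 h A, miR-127-3p was at 0.44 (0.0568) and miR-369-3p at 0.15 (0.504). The calls of miR-369-3p and miR-494-3p were lost in 8 of 14 left-out libraries each. With no filter on low counts the calls of miR-127-3p (0.179), miR-369-3p (0.257) and miR-493-3p (0.0963) ended, and that of miR-494-3p ended with DESeq2 size factors (0.0525) and with GC correction and replicate block (0.0615).

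Beside these values, a smooth curve of log2 counts on the GC content of the mature sequence was fitted in each library. In DMSO 12 h B it put entries with 63.6% GC above entries with 33.3% GC by 0.55 on the log2 scale. The shift was 0.211 in DMSO 12 h A, much as in PA 24 h B (0.208), and ran down to -0.20 in the other libraries. GC and log2 fold change were compared across the 54 members by Spearman correlation. For DMSO 12 h against the other DMSO times it was 0.39, against 0.27 over 597 named entries with a sequence. For PA against DMSO it was 0.27 at 3 h (-0.08 over those entries), -0.34 at 12 h (-0.29) and 0.31 at 24 h (0.07). These correlations run over miRNAs that share libraries and are given as a description.

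At 3 h no difference between PA and DMSO was detectable in any member. With edgeR 0 of 54 passed, where 0.247% of all entries passed, and 1 had an unadjusted p under 0.05 (1.73% of all entries). With DESeq2 0 passed. The median log2 fold change of the members was 0.03, against -0.01 over all entries. The proximal median was 0.09 and the distal one 0.02. Both libraries of PA lay above both of DMSO for 10 members (16.3% of all entries) and below them for 5 (16% of all entries). The smallest p belonged to miR-431-3p, a rare arm of a hairpin opposite RTL1, at 4.59 and 4.68 CPM in DMSO and 17.6 and 12.9 CPM in PA, a log2 fold change of 1.70 ± 0.50 (adjusted p = 0.809). In the lower direction it was miR-299-3p, at 23.7 and 19.3 CPM in DMSO and 16.7 and 10.8 CPM in PA (-0.66 ± 0.42, adjusted p = 1).

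At 12 h miR-377-3p and miR-494-3p were higher with PA than with DMSO, and miR-370-3p, miR-369-3p and miR-411-3p were lower. These 5 of 54 members stand against 11.1% of all entries (6.3% higher and 4.81% lower), so the share called was near the background. One was proximal (of 15) and 4 were distal (of 39). Both libraries of PA lay above both of DMSO for 16 members (25.3% of all entries) and below them for 9 (26.8%). The median log2 fold change was 0.08 over members, 0.03 over proximal and 0.11 over distal members, and -0.06 over all entries.

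The largest rise was that of miR-377-3p, from 253 and 235 CPM in DMSO to 676 and 665 CPM in PA, which was 1.46 ± 0.21 (SE) on the log2 scale with an edgeR adjusted p of 0.000442. The pairs were far apart, and the DMSO 12 h values were the 2 lowest of all 14 libraries, while the PA values lay within the 392 to 724 CPM of the other DMSO times. miR-494-3p rose from 122 and 146 CPM to 225 and 258 CPM (0.85 ± 0.22, adjusted p = 0.0243). The DMSO 12 h libraries were again the 2 lowest of 14.

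Among the falls, miR-370-3p, the last hairpin of the proximal group, had the greatest difference, from 503 and 1034 CPM in DMSO to 367 and 271 CPM in PA (-1.27 ± 0.27, adjusted p = 0.0107). DMSO 12 h B stood far above every other library, and without it the log2 fold change was -0.66 (adjusted p = 0.0951). miR-369-3p fell from 2572 and 1821 CPM to 1429 and 1329.6 CPM (-0.67 ± 0.17, adjusted p = 0.0206), and without DMSO 12 h A its log2 fold change was -0.40 (adjusted p = 0.103). miR-411-3p fell from 148 and 155 CPM to 107 and 84.5 CPM (-0.66 ± 0.19, adjusted p = 0.0378). For both, the DMSO 12 h libraries were the 2 highest of 14. miR-379-3p, which has the same seed as miR-411-3p, was at 52.4 and 36.4 CPM in DMSO and 39.4 and 51.8 CPM in PA, with overlapping libraries.

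At 12 h, too, the count of members passing changed with the library left out. miR-377-3p passed in all 22 alternatives tried, with an adjusted p of at most 0.00794. The other 4 calls depended on single libraries and on the method: miR-370-3p was also lost without PA 12 h B (adjusted p = 0.117), miR-494-3p without DMSO 12 h A (0.0838) or either PA 12 h library (0.0823 for A, 0.171 for B), miR-369-3p likewise without either PA 12 h library (0.0732 for A, 0.162 for B), and miR-411-3p without any of 9 libraries (both of DMSO 3 h, PA 3 h, PA 12 h and DMSO 24 h, and the B library of DMSO 12 h, adjusted p 0.0576 to 0.299). With no filter miR-369-3p (0.109) and miR-411-3p (0.416) did not pass, and in a fit of the 4 libraries alone miR-377-3p was the 1 member that passed. A correction for GC content kept all 5, with log2 fold changes of 1.19 for miR-377-3p, 0.73 for miR-494-3p, -0.92 for miR-370-3p, -1.08 for miR-369-3p and -0.79 for miR-411-3p, but with the replicate block added miR-494-3p was at an adjusted p of 0.0555. The part of the marker levels in these results was not tested. Set against the mean of DMSO at 0, 3 and 24 h, PA at 12 h passed for 0 of 54 members (0.617% of all entries), while 9 had an unadjusted p under 0.05 (13.6% of all entries) and 2 passed with DESeq2 (2.50% of the 559 entries to which it gave an adjusted p). The closest were miR-409-5p (0.67 ± 0.16, adjusted p = 0.0649) and miR-380-5p (-1.04 ± 0.26, adjusted p = 0.071). This reference and the 12 h comparison share the PA libraries, and it mixes PA with time in culture.

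At 24 h miR-154-3p, miR-376a-3p and miR-376b-3p were lower with PA than with DMSO and miR-380-5p was higher. Over the whole cluster the log2 fold change was negative for 40 of 54 members, and for 409 of all 810 entries. The median was -0.25 over members (proximal -0.18, distal -0.27), against -0.01 over all entries. Both libraries of PA lay below both of DMSO for 26 members, 48.1%, where 26.5% of all entries did so, and above them for 6 (25.6% of all entries). The test passed for 4 of 54 members (6.67% of all entries), 1 higher (4.32% of all entries) and 3 lower (2.35%), all distal. Scaling by total counts moved the median of all entries to -0.19 and that of the members to -0.42, and 10 members then passed (9.26% of all entries), 9 of them lower (5.68% of all entries). Marker lists differed between the same libraries without overlap. The entries overlapping other small RNAs summed to 8888 to 10931 CPM in PA 24 h against 6985 to 8652 in DMSO 24 h, the red blood cell list to 510.02 to 569.9 against 394 to 411, and the fibroblast and endothelial list to 1183 to 1309.6 against 1369 to 1409. Their part in the lower level of the cluster was not tested. With the mean of DMSO at 0, 3 and 12 h as reference, most members were not lower in PA at 24 h. The log2 fold change was then positive for 33 of 54 members (430 of 810 entries), with a median of 0.05 (0.02 over all entries).

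Of the falls, miR-154-3p went from 582 and 557 CPM in DMSO to 310 and 268 CPM in PA, a log2 fold change of -0.98 ± 0.21 (adjusted p = 0.00909). The DMSO 24 h pair was the highest of all groups and PA 24 h lay near or below the DMSO 0 h pair, at 422 and 313 CPM. miR-376a-3p went from 128 and 103 CPM to 73.4 and 61.4 CPM (-0.77 ± 0.21, adjusted p = 0.0388). Its neighbour miR-376b-3p, with the same seed, went from 57.9 and 40.3 CPM to 22.9 and 21.0 CPM (-1.15 ± 0.31, adjusted p = 0.032). For both the PA 24 h values lay close to those of DMSO 0 h, 66.4 and 53.5 CPM and 18.6 and 23.9 CPM. The third of the family, miR-376c-3p, from which miR-376a-3p differs by A2U and U14A, was at 249 and 278 CPM in DMSO and 283 and 222 CPM in PA, with overlapping libraries. miR-487a-3p, which has the seed of miR-154-3p, was at 80.4 and 77.2 CPM in DMSO and 59.8 CPM in both libraries of PA, lower without overlap, but did not pass (adjusted p = 0.338).

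The only rise was that of miR-380-5p, from 148 and 99.3 CPM to 200.3 and 396 CPM (1.26 ± 0.30, adjusted p = 0.0189). It did not overlap, but PA 24 h A and B differed by almost as much as the groups. Just short of the threshold were miR-369-3p, at 1702 and 1793 CPM in DMSO and 1203 and 1138 CPM in PA (-0.58 ± 0.17, adjusted p = 0.0518), and miR-409-5p, at 941 and 923 CPM in DMSO and 1680.0 and 1338 CPM in PA (0.70 ± 0.21, adjusted p = 0.0561).

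These calls rested on few libraries and in part on the method. With DESeq2 neither miR-376a-3p (adjusted p = 0.067) nor miR-376b-3p (0.0535) passed. miR-376a-3p was also lost with DESeq2 size factors in edgeR (0.0532), no filter (0.0979) and GC correction (0.0646), and miR-376b-3p with GC correction and replicate block (0.0595). In a fit of the 4 libraries alone miR-154-3p was the 1 member that passed. Without DMSO 24 h B or without PA 24 h B no member passed (0 of 54), and miR-380-5p then had an adjusted p of 0.207 and 0.212, with a log2 fold change of 0.70 without PA 24 h B. Without DMSO 24 h A only the call of miR-380-5p was kept, and miR-154-3p was at a log2 fold change of -0.95. Both miR-376 members also lost their calls when either PA 3 h library was left out, and miR-376a-3p lost its call in 8 of 14 left-out libraries in all. The count of members passing also changed without DMSO 12 h A or B, which do not enter the contrast but its shared estimate of spread.

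**Figure D3:**
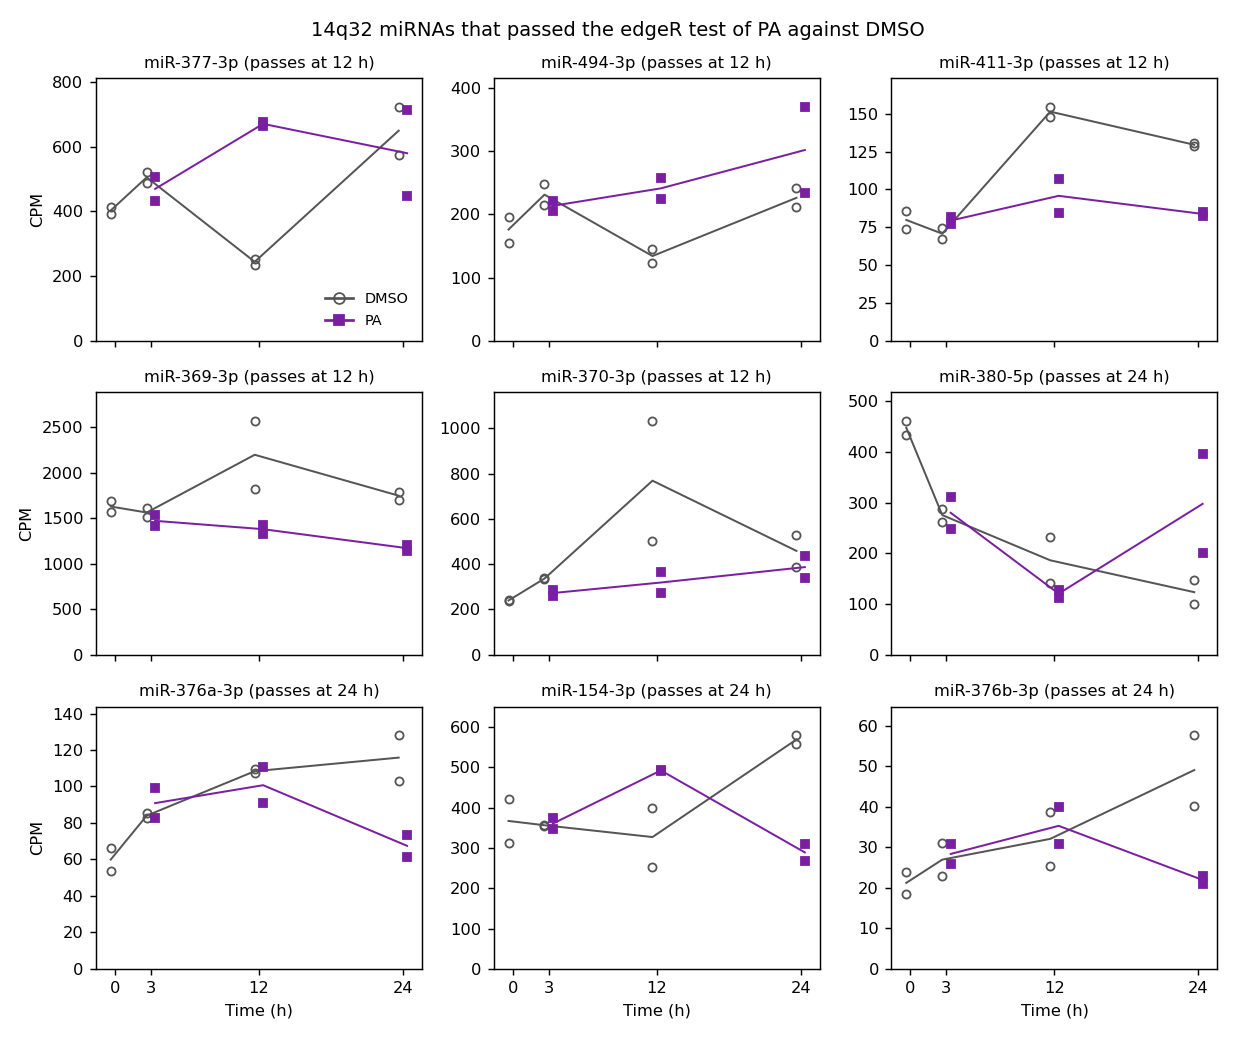
CPM in every library over time for the 9 members that passed at 12 h or 24 h, as each panel title says, DMSO as open circles and PA as filled squares, with lines through the mean of 2 libraries. At 12 h the DMSO pair of miR-377-3p (235 and 253 CPM) lies below all other libraries, and at 24 h the DMSO pair of miR-154-3p (557 and 582 CPM) lies above them.

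Set against the mean of DMSO at 0, 3 and 12 h instead, PA at 24 h passed for 5 of 54 members (8.52% of all entries), 4 higher (6.17%) and 1 lower (2.35%). miR-409-5p rose by 1.02 ± 0.16 on the log2 scale (adjusted p = 0.000859), and both its PA 24 h libraries, and both of PA 12 h at 957 and 1430.0 CPM, lay above all 8 DMSO libraries (524 to 941 CPM). It passed in each of the 21 alternatives. miR-494-3p (0.79 ± 0.17, adjusted p = 0.00835) and miR-377-3p (0.66 ± 0.16, 0.0136) were also higher, but without PA 24 h A they were at 0.33 (0.449) and 0.21 (0.611). miR-493-3p was higher by 0.50 ± 0.13 (0.0222), a call lost without either PA 24 h library (0.106 for A, 0.119 for B) or DMSO 3 h A (0.0597), with scaling by total counts (0.36, 0.0893) and with no filter (0.0967). miR-369-3p was lower by -0.60 ± 0.14 (0.0132, and 0.111 without PA 24 h B), and its PA 24 h values were the 2 lowest of 14 libraries. Leaving out A or B of PA 24 h, one at a time, changed the count of members passing. This comparison shares its PA libraries with the one at 24 h, and in it PA and time in culture cannot be told apart. The reference also includes DMSO 12 h, whose libraries were the 2 lowest of 14 for miR-377-3p and miR-494-3p. At 24 h miR-377-3p was at 712 and 447 CPM in PA and 724 and 575 CPM in DMSO. miR-494-3p was at 371 and 233 CPM in PA and 211 and 242 CPM in DMSO at 24 h, and for both the libraries overlapped.

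**Figure D4:**
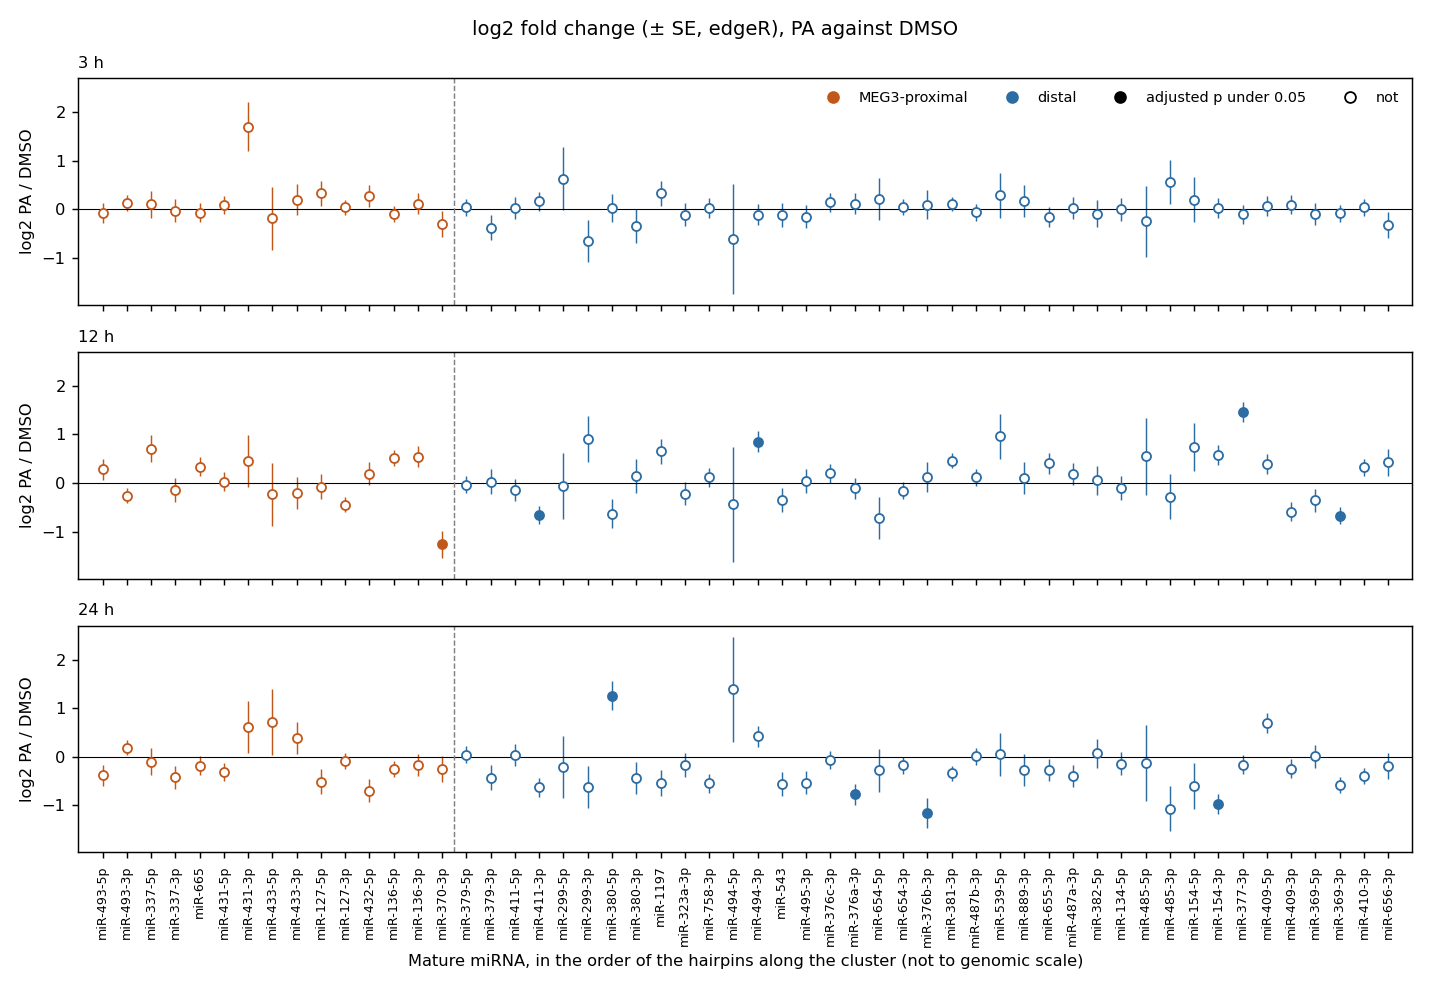
Log2 fold change of PA against DMSO (± SE, edgeR) at 3, 12 and 24 h for the 54 members in the order of their hairpins, proximal in orange and distal in blue, filled where the adjusted p was under 0.05. None passed at 3 h, 5 passed at 12 h and 4 distal members passed at 24 h. There 40 of 54 points lie below 0, against 409 of all 810 entries.

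The effect of PA differed between 3, 12 and 24 h for 3 of 54 members (5.93% of all entries), all distal. For miR-377-3p the log2 effect at 12 h exceeded that at 3 h by 1.56, and the effect at 24 h minus that at 3 h was -0.05 (adjusted p = 0.00385). For miR-154-3p the differences from 3 h were 0.57 at 12 h and -0.99 at 24 h (adjusted p = 0.0105). For miR-380-5p they were -0.66 and 1.24 (adjusted p = 0.0324), a call lost without either library of DMSO 3 h (0.0585 for A, 0.056 for B) or PA 12 h (0.094 for A, 0.0685 for B), the A library of DMSO 12 h (0.0548), or the B library of PA 24 h (0.117) or DMSO 24 h (0.153). The mean effect of PA over the 3 times passed for 0 of 54 members and 0% of all 808 entries tested. Of the members, 7 had an unadjusted p under 0.05 (14.4% of all entries), and 1 passed with DESeq2 (2.33% of the 557 entries to which it gave an adjusted p), miR-369-3p (-0.44, adjusted p = 0.0427). In the edgeR fit miR-369-3p had the smallest p of the members, at -0.44 ± 0.13 (adjusted p = 0.158).

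For 16 hairpins both arms were members, and the preferred arm was mostly the same in every library. The 3p arm had more reads in all 14 libraries for 8 hairpins, miR-493, miR-433, miR-127, miR-136, miR-494, miR-654, miR-154 and miR-369, by a mean log2 ratio of 1.38 (miR-493) to 6.21 (miR-494). The 5p arm had more in all 14 for 6, miR-337, miR-431, miR-379, miR-411, miR-380 and miR-409, with ratios of 3p over 5p from -4.81 (miR-431) to -2.08 (miR-409). The other two were mixed: 3p exceeded 5p in 12 libraries for miR-299 and in 13 for miR-485, each with an arm at few reads. In the 12 hairpins with at least 5 reads of each arm in every library, the ratio of miR-380 ran widest. It went from -5.70 in a DMSO 0 h library to -1.42 in a DMSO 24 h library. The ratios of miR-494 (3.92 to 9.94), miR-485 and miR-299 ran wider still, each with an arm under 5 reads in at least 1 library.

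No arm ratio passed the test of PA against DMSO. The exact permutation test of the mean PA effect within times, two-sided, gave 0 of 16 with an adjusted p under 0.05 and 2 with an unadjusted p under 0.05, and the smallest p that it can give is 0.00926. The 2 were miR-409, at -0.61 on the log2 scale (0.05 at 3 h, -0.95 at 12 h, -0.93 at 24 h), and miR-431, at 0.85 (1.54, 0.24 and 0.77), each with an exact permutation p of 0.0463 and an adjusted p of 0.370. At 24 h the 5p arm of miR-409 was higher in PA, as given above, and the 3p arm was at 251 and 280.2 CPM in DMSO and 220.3 and 227 CPM in PA.

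**Figure D5:**
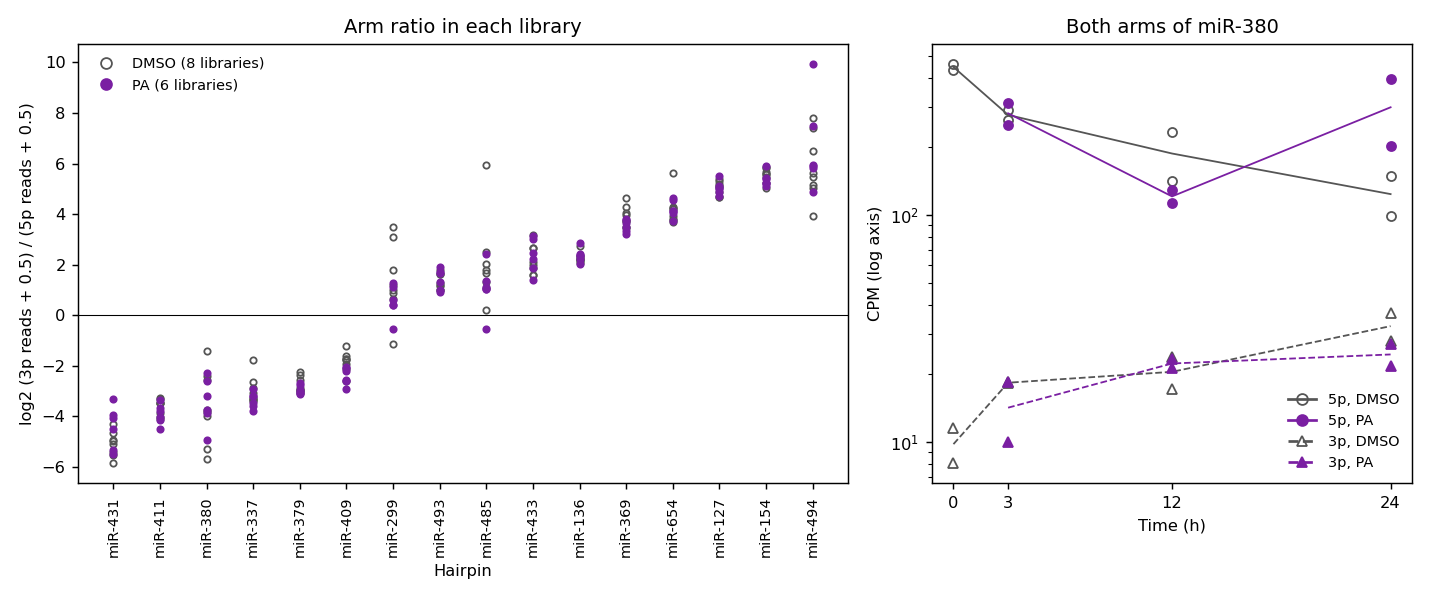
Left: log2 ratio of 3p over 5p reads (pseudocount 0.5) in each library for the 16 hairpins with both arms, DMSO open and PA filled, ordered by their mean. Right: CPM of both arms of miR-380 over time on a log axis, in which 5p falls from 434 and 462 to 148 and 99.3 CPM in DMSO while 3p rises from 8.06 and 11.5 to 27.9 and 36.9 CPM.

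Sections of the cluster were also summed. The 8 members between MIR381HG and MEG9 (miR-487a to miR-377) gave 4.90% to 8.98% of the cluster's reads, with group means from 813 CPM in DMSO 12 h to 1484 CPM in DMSO 24 h, and the 5 members from miR-493 to miR-665 had means from 1385 CPM in DMSO 0 h to 2092 CPM in DMSO 24 h. The 9 members opposite RTL1 had group means of 3499 CPM (PA 24 h) to 3937 CPM (PA 12 h). These sums were not tested.

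The table held 38 further entries of the same cluster, mostly the rarer arms, of which 17 passed the filter. One of them passed a test of PA against DMSO, miR-1185-5p at 12 h (log2 fold change 1.002, adjusted p = 0.0468). miR-345-5p and miR-342-3p, which lie at 14q32 outside the imprinted domain, had log2 fold changes of -0.29 and 0.59 at 24 h and did not pass at any time.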

How the data were processed

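The deposited counts are raw reads of a mature miRNA in a library, in whole numbers, and were taken as they stood. The TPM table that the authors also deposited was read only to check it against the counts, and no result here rests on it. The tools named were bcl2fastq, Bowtie and edgeR and the build GRCh38, per the submitters' processing notes. Their versions, the rule for reads with several matches and the handling of strand are not given in the sources used here. Where strand was ignored, reads of a miRNA and of a transcript on the other strand cannot be told apart. Of 28 value columns, 0 lacked a matching library title.

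The test was that of edgeR 4.0.16 in R 4.3.3 (glmQLFit robust, quasi-likelihood F test, TMM scaling) after filterByExpr by group (minimum count 10, minimum total 15), with all 14 libraries in 1 fit by group. The mean effect was fitted on 12 libraries with time as an additive factor. P-values were adjusted by Benjamini-Hochberg across every entry tested, and an entry passed under 0.05. Fold changes are log2 values with the standard error of the fit. Arm ratios used a pseudocount of 0.5 reads and an exact permutation test over 216 arrangements within times. The spread is shared over groups, with a common biological coefficient of variation of 0.203. On counts simulated for PA against DMSO at 24 h (759 entries), the test recovered 59.8% of changes of 1 and 89.1% of changes of 2 on the log2 scale. The simulation gave every entry and library the same spread, which the real groups did not share, so recovery in these data may be lower.

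Members named are those passing any comparison, the 10 most abundant, the 5 most abundant of each group, both arms of the hairpins in the arm test, members sharing a seed, and the smallest p in each direction at each time. miR-376c-3p, the 2 members at 0 counts and entries that are no members were named after their values were seen. The members and lists were chosen with earlier results of these data known. The alternatives were scaling by total counts or DESeq2 size factors, DESeq2 1.42.0, no filter, a replicate block, only the 4 libraries compared and leaving out each library. A GC correction (loess, span 0.5, on 597 named entries with a sequence), alone or with the block, was added after seeing the data. Letters A and B were taken not to pair libraries: over 21 pairs of groups, the deviations of A from the group mean correlated between -0.17 and 0.11.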

Additional observations from a re-analysis of the deposited data

Results flagged for a closer look

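The effect of PA differed between 3, 12 and 24 h for 3 members by the test of the difference itself (edgeR quasi-likelihood F test on the 14 libraries). For miR-377-3p the adjusted p was 0.00385, with log2 fold changes of -0.11 at 3 h, 1.46 at 12 h and -0.16 at 24 h. For miR-154-3p it was 0.0105, with 0.02, 0.58 and -0.98. For miR-380-5p it was 0.0324, with 0.02, -0.64 and 1.26.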

How the results depend on the processing

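Of 37 passing results of single members, 14 passed under all alternatives run for them. The 23 with a direction kept it in each. The other 14 are F tests, which have none. With only the 4 libraries compared, 1 member passed at 12 h in place of 5 and 1 at 24 h in place of 4. Scaling by total counts raised the count at 24 h to 10 (9.26% of all entries). With DESeq2 1 member passed for the mean effect and 2 for PA at 12 h against the other DMSO times, as did 2 with no filter. Leaving out 1 library gave 0 to 0 members at 3 h, 1 to 9 at 12 h, 0 to 9 at 24 h, 2 to 6 for the effect differing between times, 0 to 0 for the mean effect, 7 to 12 for DMSO at 12 h against the other DMSO times, 0 to 2 and 3 to 7 for PA at 12 and 24 h against them, and 7 to 19 for DMSO over time. For PA against DMSO at 12 h, the effect differing between times, PA at 24 h against the other DMSO times and DMSO over time, the highest count came without DMSO 12 h A. Shares over all entries are not given for the fits of 4 libraries, the left-out libraries or no filter. Those counts therefore do not set the members apart from other miRNAs. The log2 proximal over distal ratio went from -0.76 to -1.05 without the most abundant member of each group. The arm test gave 0 hairpins under both of its alternatives, with a smallest adjusted p of 0.278 in the 12 hairpins with at least 5 reads of each arm.

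With the replicate block 5 members passed at 12 h, 4 at 24 h and 0 at 3 h, as without it. The letters were taken not to pair the libraries, and the block changed no call of PA against DMSO. In the comparison of DMSO at 12 h with the other DMSO times, miR-369-3p (adjusted p = 0.0539) was lost and miR-299-3p (0.0342) was gained. With the GC correction 7 members passed at 12 h and 4 at 24 h, and with GC correction and replicate block 5 and 3. miR-409-3p and miR-665 were gained at 12 h, and miR-376a-3p was replaced by miR-409-5p at 24 h. The GC correction tested 597 entries in place of 810. Shares over all entries are not given for it or for the replicate block, so these counts describe the members alone.

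With 2 libraries a group, changes of 2-fold were recovered only in part on simulated counts, and the 6 members under 10 CPM cannot show modest changes at this depth.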
